A study of Mus musculus with 12 samples.

Results

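Immunoglobulin A is the antibody of mucosal surfaces, and the RNA of its heavy chain (Igha) and of the J chain (Jchain), which joins immunoglobulin A units into dimers, was followed here in mouse lung beside 6 further genes of the B cell lineage and of antibody transport. The 8 genes were Igha, Jchain, the immunoglobulin M heavy chain gene Ighm, the transcriptional coactivator gene Pou2af1, the B cell antigen receptor genes Cd79a and Cd79b, the B cell surface gene Ms4a1 (CD20) and the polymeric immunoglobulin receptor gene Pigr. Every probe set that the platform's annotation assigned to 1 of these symbols alone was taken, which gave 22 of the 45037 probe sets for 8 of the 18193 genes named in this way. Igha had 3, Jchain 1, Ighm 11, Pou2af1 1, Cd79a 1, Cd79b 1, Ms4a1 2 and Pigr 2. The genes were chosen by their genotype differences on these same arrays, high for Igha and Jchain and small for the B cell genes. Genotype differences are therefore given as description, without a test.

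The arrays were Affymetrix expression arrays of total lung RNA from 12 male C57BL/6 mice aged 8 to 12 weeks, with 3 arrays in each of 4 groups. The groups were nmMLCK-/- mice after ventilator-induced lung injury (VILI), nmMLCK-/- mice under spontaneous breathing (SB), wild-type mice after VILI and wild-type mice under SB. nmMLCK, a product of Mylk, is the longer non-muscle form of the kinase that phosphorylates myosin light chains. The labels do not give how the mutant line was made or kept. VILI meant 4 h at 65 breaths per minute, no end-expiratory pressure (0 cm H2O) and a tidal volume of 40 ml/kg by the sample labels or 30 ml/kg by the series text. SB mice were not ventilated, so the comparison of VILI with SB covers the whole procedure. Values are log2 signals as deposited, and the labels do not say whether replicates differ in more than the animal, so p-values measure the spread between these arrays.

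Background on the lineage helps to read the genes. A B cell carries its antibody as a membrane receptor that signals through CD79A and CD79B, and it displays CD20. When it matures into a plasma cell it lowers these surface proteins and secretes antibody in bulk. Mucosal plasma cells that have switched to the immunoglobulin A heavy chain also make J chain, and epithelial cells take up the resulting dimers by the polymeric immunoglobulin receptor and carry them to the airway surface. Pou2af1 encodes the partner of the octamer-binding factors on immunoglobulin promoters, and both B cells and plasma cells use it.

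The promoter windows of the plasma cell gene Jchain, of Pou2af1 and of the B cell gene Cd79a are shown because these genes stand for the patterns described below. They come from RefSeq on GRCm38.p6 and run from 250 bases before to 50 bases after the gene's start, 5′ to 3′ on the gene's strand. Jchain lies at chr5:88527848-88528147 (minus strand), Pou2af1 at chr9:51213440-51213739 (plus strand) and Cd79a at chr7:24897247-24897546 (plus strand). Capitals mark matches to the octamer ATGCAAAT or to the shorter TGCAAAT that it contains, searched on both strands.
Jchain: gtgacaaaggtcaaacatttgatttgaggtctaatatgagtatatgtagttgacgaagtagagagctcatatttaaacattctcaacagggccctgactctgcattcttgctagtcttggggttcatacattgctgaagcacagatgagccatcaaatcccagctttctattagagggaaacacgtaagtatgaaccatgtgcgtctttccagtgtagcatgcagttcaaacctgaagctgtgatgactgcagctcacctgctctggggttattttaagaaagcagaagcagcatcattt
Pou2af1: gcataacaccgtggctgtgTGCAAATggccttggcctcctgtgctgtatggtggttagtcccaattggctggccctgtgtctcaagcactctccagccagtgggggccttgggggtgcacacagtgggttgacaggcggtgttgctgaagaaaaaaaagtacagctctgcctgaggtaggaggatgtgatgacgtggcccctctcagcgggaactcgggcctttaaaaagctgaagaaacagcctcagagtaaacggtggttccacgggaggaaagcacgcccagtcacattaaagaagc
Cd79a: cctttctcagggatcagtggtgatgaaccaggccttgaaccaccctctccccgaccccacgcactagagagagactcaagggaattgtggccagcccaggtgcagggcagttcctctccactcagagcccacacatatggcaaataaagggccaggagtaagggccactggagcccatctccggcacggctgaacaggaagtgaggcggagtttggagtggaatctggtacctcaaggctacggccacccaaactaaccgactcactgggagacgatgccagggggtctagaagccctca
The octamer was in none of these 3 windows, and 1.74% of the 32851 windows of 300 bases held it. Pou2af1 held 1 match to the shorter motif, at position -231 from the start, and 4.02% of all windows held at least 1. Of the 8 genes, 4 (Jchain, Pou2af1, Cd79a and Pigr) had a window, and the window of Pigr held neither motif.

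The arrays were even, with medians of 4.94 to 5.04 and correlations of 0.981 to 0.998 between arrays across probe sets. Mylk, the targeted gene, was read by 3 probe sets, at -0.74 to -0.14 log2 nmMLCK-/- minus wild type after VILI and -0.97 to -0.22 under SB, and the isoform read by each is not known here. The array labelled wild-type SB replicate 3 lay within the nmMLCK-/- SB range on 2 of the 3 and above it on the third. On the dimmest it read 4.67, against 5.51, 4.63 and 4.88 in nmMLCK-/- SB and 6.70 and 6.55 in the other wild-type SB arrays, and without it the difference there was -1.62. Wild-type VILI replicates 1 and 3, at 5.38 and 5.36, also lay within the nmMLCK-/- SB range there, though above nmMLCK-/- VILI (4.52 to 5.10). Whether the label of wild-type SB replicate 3 is right was not tested. Wild-type SB replicate 3 below means the array so labelled, and the results that rest on it are given with and without it.

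Igha was far higher in nmMLCK-/- lungs than in wild-type lungs, both after VILI and under SB. Its probe set 1421653_a_at read 12.94, 12.22 and 12.82 log2 units in nmMLCK-/- VILI replicates 1 to 3, against 8.13, 9.15 and 6.74 in wild-type VILI. Under SB it read 12.87, 12.55 and 12.45 in nmMLCK-/- lungs, against 8.64, 9.08 and 11.06 in wild type. All 6 nmMLCK-/- arrays lay above all 6 wild-type arrays, and wild-type SB replicate 3 was the wild-type array nearest to them. The nmMLCK-/- minus wild-type difference was 4.66 ± 0.66 (SE, n = 3 arrays per group) after VILI, or 25.2-fold, and 3.03 ± 0.66 under SB, or 8.18-fold. In bulk lung RNA a difference in the number of plasma cells and one in RNA per cell cannot be told apart.

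The other probe sets of Igha gave the same picture. 1425763_x_at read 12.42, 11.65 and 12.24 in nmMLCK-/- VILI, against 7.55, 8.71 and 7.08 in wild-type VILI, and 12.37, 11.97 and 11.97 in nmMLCK-/- SB, against 8.55, 8.64 and 10.61 in wild-type SB. 1429381_x_at read 11.90, 10.98 and 11.60 in nmMLCK-/- VILI, against 6.13, 7.48 and 5.21 in wild-type VILI, and 11.83, 11.39 and 11.35 in nmMLCK-/- SB, against 7.32, 7.59 and 9.91 in wild-type SB. Again the genotypes did not overlap in either condition. Over the 3 probe sets the genotype difference ran from 4.33 to 5.23 log2 after VILI and from 2.83 to 3.25 under SB. The SB differences were 3.51 to 4.07 when wild-type SB replicate 3 was left out. The spread within the genotypes was unequal. The SD of 1421653_a_at was 0.39 after VILI and 0.22 under SB in nmMLCK-/- lungs, and 1.21 and 1.29 in wild-type lungs (n = 3 each). Immunoglobulin probe sets, those with an x in their name most of all, can read related heavy chain sequences, so their assignment to Igha is less certain than that of single-copy genes.

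Jchain, which is not part of the heavy chain locus, followed Igha. It read 9.67, 8.88 and 9.47 in nmMLCK-/- VILI, against 6.60, 6.04 and 6.05 in wild-type VILI. Under SB it read 10.17, 9.87 and 9.67 in nmMLCK-/- lungs, against 7.02, 7.32 and 8.05 in wild type. The lowest nmMLCK-/- array stood above the highest wild-type array, which was again SB replicate 3. The difference was 3.11 ± 0.29 after VILI (8.63-fold) and 2.44 ± 0.29 under SB (5.43-fold). The RefSeq annotation of GRCm38.p6 places Jchain on chromosome 5, Igha and Ighm on chromosome 12 and Mylk on chromosome 16, and none of the 8 genes lies on the chromosome of Mylk.

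**Figure D1:**
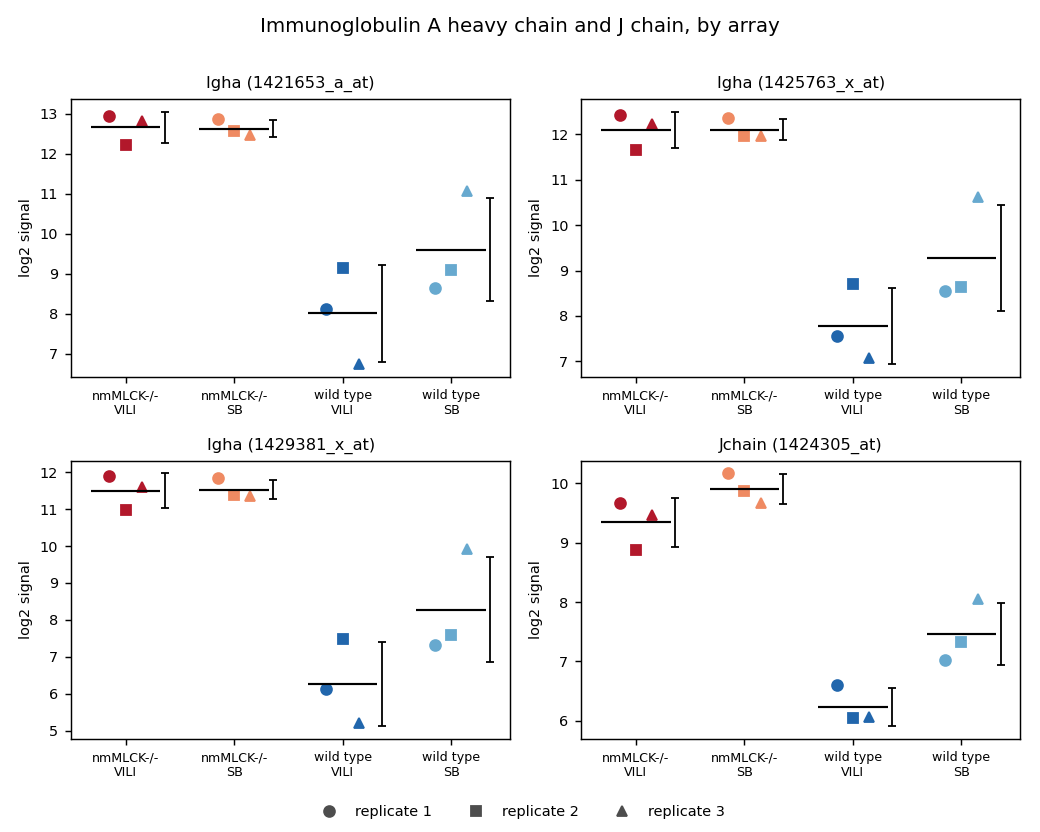
Log2 signal of the 3 Igha probe sets and of Jchain on each of the 12 arrays (points; symbol shape gives the replicate), with the group mean (line) and SD (bar beside it, n = 3). In all 4 panels the 6 nmMLCK-/- arrays lie above the 6 wild-type arrays, and wild-type SB replicate 3 is the highest wild-type array.

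Of the 15 probe sets of the 8 genes past the filter on dim signals, 4 had all nmMLCK-/- arrays above all wild-type arrays over both conditions, the 3 of Igha and that of Jchain. Among all 22443 probe sets tested the share was 0.111%, or 25 probe sets. Within conditions, 4 lay wholly above wild type under SB (3.82% of all probe sets did) and 5 after VILI (10.8%), the added one being an Ighm probe set. None of the 15 lay wholly below wild type in either condition, where 3.34% of all probe sets did under SB and 9.91% after VILI. Sorted by the difference after VILI with the highest first, the Igha probe sets held places 1, 2 and 3 and Jchain place 4 of 22443. Under SB they held places 3, 7, 8 and 12. These counts and places restate the contrast by which the genes were picked.

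The B cell surface genes did not share this pattern. Cd79a, a signalling chain of the B cell receptor, read 8.21, 7.57 and 7.81 in nmMLCK-/- VILI, against 8.16, 7.99 and 7.54 in wild-type VILI. Under SB it read 7.15, 7.45 and 6.61 in nmMLCK-/- lungs, against 7.07, 7.43 and 8.88 in wild type. The genotypes overlapped in both conditions, at a difference of -0.04 ± 0.42 after VILI and -0.72 ± 0.42 under SB. The SB value was -0.18 with wild-type SB replicate 3 left out and -1.09 with replicate 1 of that group left out.

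Cd79b, the other signalling chain, read 9.19, 8.94 and 8.89 in nmMLCK-/- VILI, against 9.30, 9.12 and 8.62 in wild-type VILI, and 8.04, 8.70 and 7.65 in nmMLCK-/- SB, against 8.55, 8.74 and 9.86 in wild-type SB. Its difference was -0.01 ± 0.36 after VILI and -0.92 ± 0.36 under SB, or -0.51 under SB without wild-type SB replicate 3. Ms4a1 overlapped as well. Its probe set 1423226_at read 8.45, 7.68 and 7.78 in nmMLCK-/- VILI, against 8.48, 8.42 and 8.03 in wild-type VILI, and 8.03, 8.69 and 7.12 in nmMLCK-/- SB, against 8.11, 7.98 and 10.13 in wild-type SB. Its other probe set, 1450912_at, read 8.23, 8.08 and 7.72 in nmMLCK-/- VILI, against 8.10, 7.83 and 7.77 in wild-type VILI, and 7.43, 8.73 and 7.09 in nmMLCK-/- SB, against 7.98, 7.58 and 9.93 in wild-type SB. The 2 probe sets differed by -0.34 ± 0.55 and 0.11 ± 0.57 after VILI and by -0.79 ± 0.55 and -0.75 ± 0.57 under SB. The SB differences were -0.09 and -0.03 without wild-type SB replicate 3.

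Pou2af1, shared by B cells and plasma cells, went with the B cell genes. It read 8.37, 8.30 and 7.99 in nmMLCK-/- VILI, against 8.20, 8.03 and 8.02 in wild-type VILI. Under SB it read 7.24, 6.97 and 5.24 in nmMLCK-/- lungs, against 6.86, 6.99 and 9.02 in wild type. Its lowest array was nmMLCK-/- SB replicate 3 and its highest wild-type SB replicate 3, the same arrays that held the lowest and the highest values of Cd79a, Cd79b and Ms4a1. The genotype difference was 0.14 ± 0.60 after VILI and -1.14 ± 0.60 under SB, with -0.44 without wild-type SB replicate 3 and -0.52 without nmMLCK-/- SB replicate 3.

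**Figure D2:**
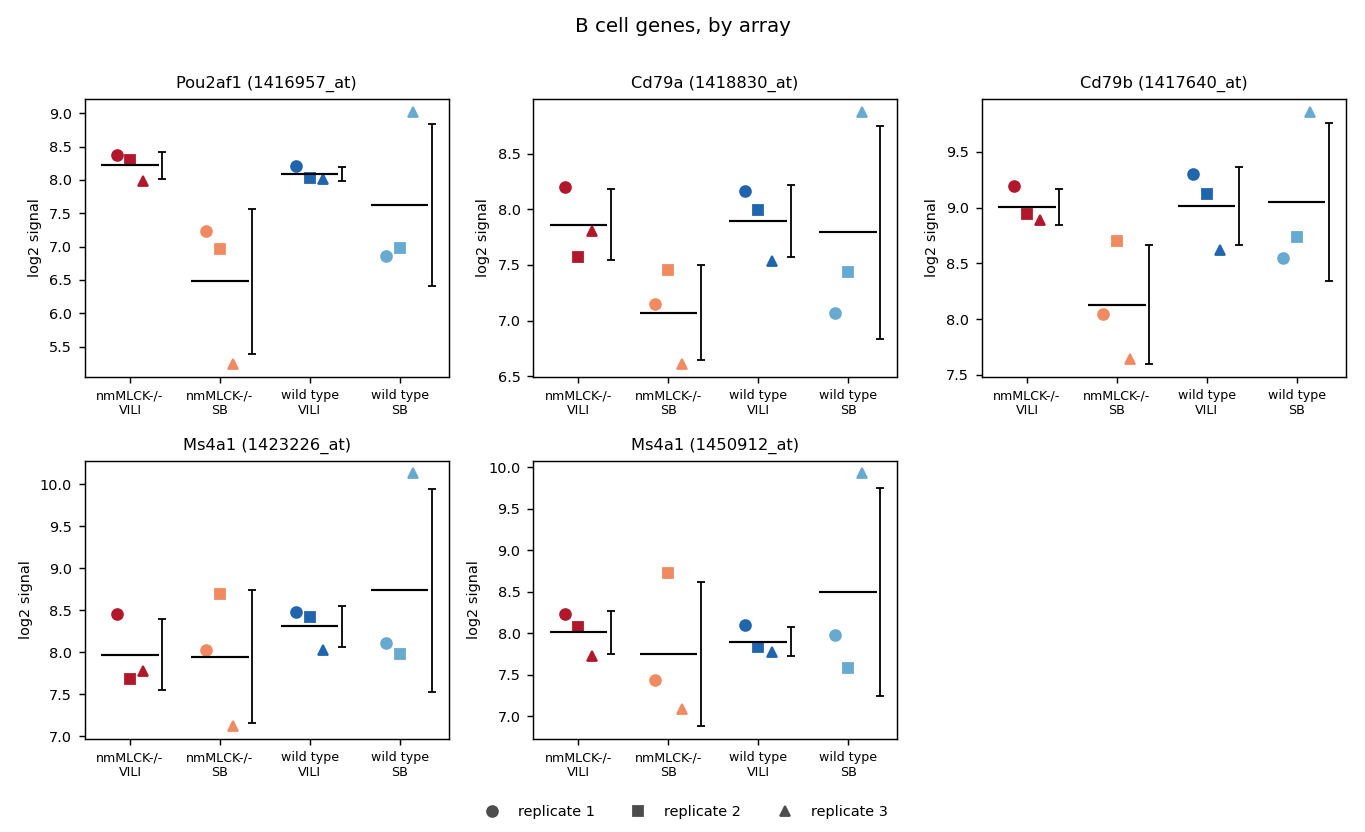
Log2 signal of Pou2af1, Cd79a, Cd79b and the 2 Ms4a1 probe sets on each array (points; symbol shape gives the replicate), with group mean (line) and SD (bar, n = 3). Genotypes overlap in every panel, wild-type SB replicate 3 is the highest point and nmMLCK-/- SB replicate 3 the lowest.

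Ighm, the heavy chain of naive B cells and of immunoglobulin M plasma cells, was close to level between genotypes where its probe sets were bright. 1427329_a_at read 10.42, 10.29 and 10.16 in nmMLCK-/- VILI, against 10.69, 10.03 and 9.93 in wild-type VILI, and 10.23, 10.27 and 9.24 in nmMLCK-/- SB, against 9.99, 10.09 and 10.77 in wild-type SB. 1427351_s_at differed by 0.44 ± 0.41 after VILI and -0.15 ± 0.41 under SB, and 1427870_x_at by 0.25 ± 0.12 and -0.05 ± 0.12. All 3 overlapped between genotypes in both conditions. The fourth past the filter, 1425385_a_at, was dim and uneven, at 4.06, 2.95 and 4.90 in nmMLCK-/- VILI, against 2.60, 2.62 and 2.83 in wild-type VILI, and at 6.70, 2.75 and 4.04 in nmMLCK-/- SB, against 3.67, 2.57 and 2.63 in wild-type SB. It lay wholly above wild type after VILI only, by 1.29 ± 0.85. All 3 wild-type VILI arrays lay under the filter level of 3.056 there, as did the wild-type means, 2.68 after VILI and 2.96 under SB. The nmMLCK-/- means were 3.97 and 4.50, and the probe set passed the filter through them. The other 7 Ighm probe sets read 2.07 to 3.25 over all arrays and did not pass the filter. A further 4 probe sets carried a member symbol together with others and were not analysed here.

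Pigr, the epithelial receptor that transports dimeric immunoglobulin A, overlapped between the genotypes. 1455490_at read 9.84, 10.03 and 10.15 in nmMLCK-/- VILI, against 10.38, 10.34 and 9.63 in wild-type VILI, and 9.95, 9.67 and 9.57 in nmMLCK-/- SB, against 9.96, 10.45 and 9.70 in wild-type SB. The difference was -0.11 ± 0.23 after VILI and -0.30 ± 0.23 under SB. 1450060_at differed by -0.11 ± 0.23 after VILI and -0.45 ± 0.23 under SB. Without wild-type SB replicate 3 the SB differences were -0.47 for 1455490_at and -0.61 for 1450060_at. Both probe sets then lay wholly below wild type under SB, 1455490_at by a slight margin (9.95 against 9.955). The share of all probe sets without overlap in that smaller set of arrays was not counted.

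**Figure D3:**
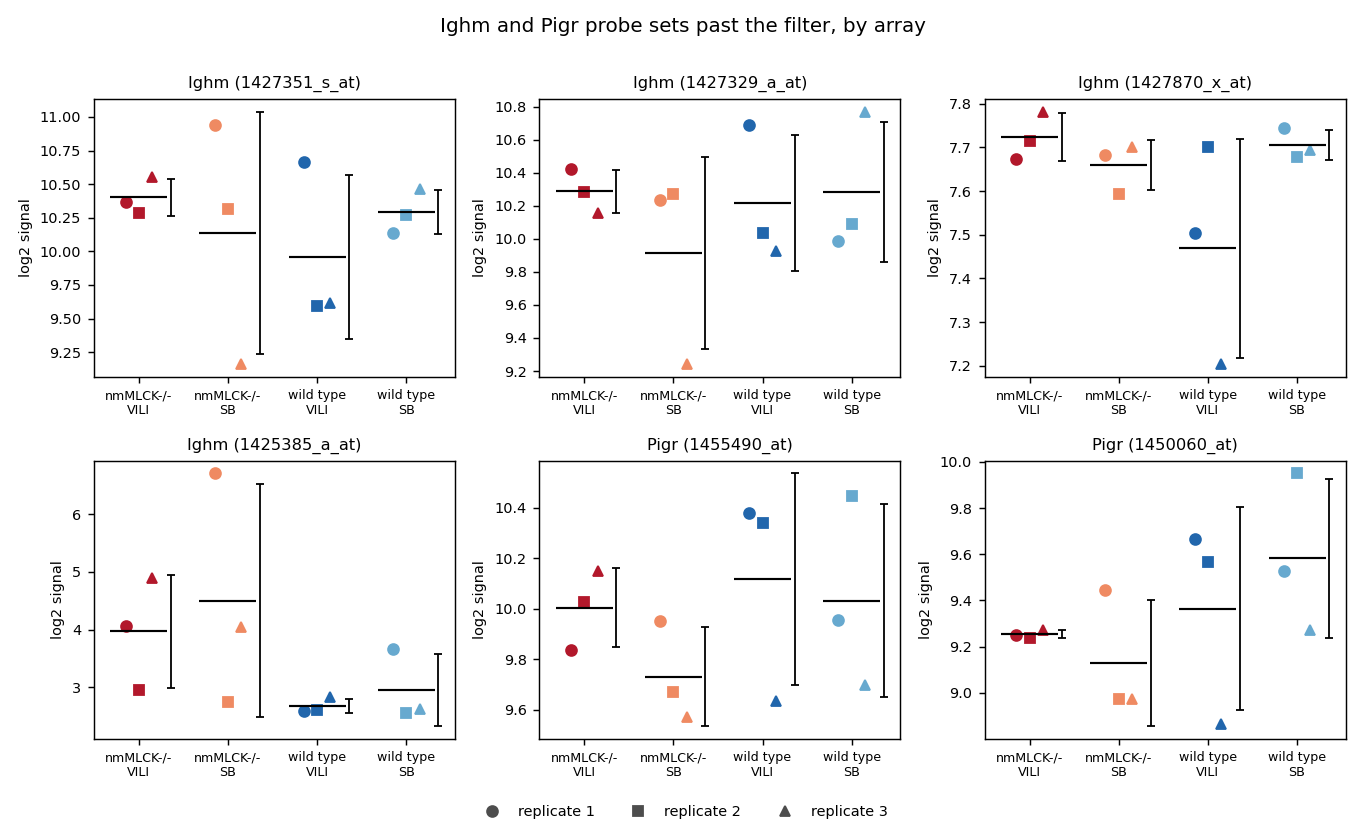
Log2 signal of the 4 Ighm probe sets past the filter and of the 2 Pigr probe sets on each array (points; symbol shape gives the replicate), with group mean (line) and SD (bar, n = 3). The genotypes overlap except in the dim Ighm probe set 1425385_a_at after VILI.

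Set side by side, the pair Igha and Jchain and the B cell genes separated the arrays along different lines. The median genotype difference over the 4 probe sets of Igha and Jchain was 4.49 after VILI and 2.93 under SB. Over the 4 probe sets of Cd79a, Cd79b and Ms4a1 it was -0.02 after VILI and -0.77 under SB, and the SB value was -0.14 without wild-type SB replicate 3. Over the 12309 genes tested, each read by its brightest probe set, the median difference was 0.01 after VILI and 0.02 under SB. With each gene set to 0 at its mean over all arrays, Igha and Jchain together stood at 1.06 to 1.86 in nmMLCK-/- VILI and 1.61 to 2.07 in nmMLCK-/- SB, and at -2.99 to -1.95 in wild-type VILI and -1.59 to 0.10 in wild-type SB. The 3 B cell genes stood at -0.07 to 0.38 in nmMLCK-/- VILI and -1.08 to 0.09 in nmMLCK-/- SB, and at -0.18 to 0.38 in wild-type VILI and -0.31 to 1.39 in wild-type SB. A list of 12 other plasma cell genes, described below, did not follow Igha and Jchain. It stood at -0.12 to 0.12 in nmMLCK-/- VILI, against -0.21 to 0.01 in wild-type VILI. Under SB it stood at 0.04 to 0.25 in nmMLCK-/- lungs, against -0.32 to 0.31 in wild type, so the genotypes overlapped.

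**Figure D4:**
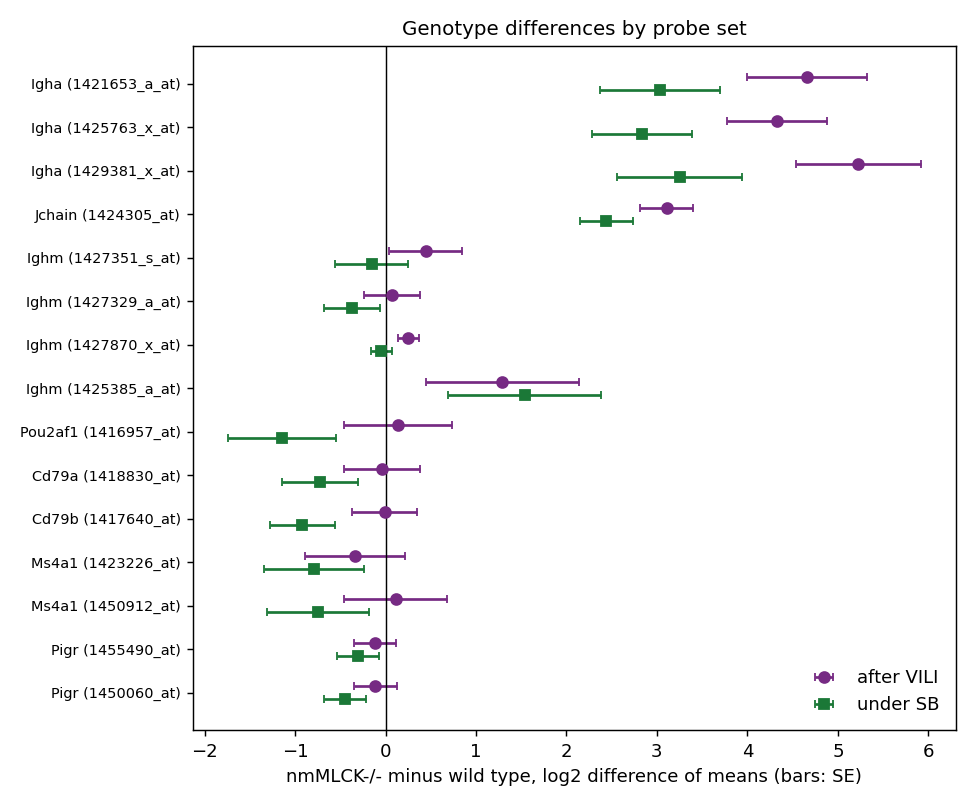
nmMLCK-/- minus wild-type log2 difference (x axis) with its SE for the 15 probe sets past the filter, after VILI (circles) and under SB (squares). The Igha and Jchain values lie between 2.44 and 5.23, the B cell gene and Pigr values between -1.14 and 0.14.

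**Figure D5:**
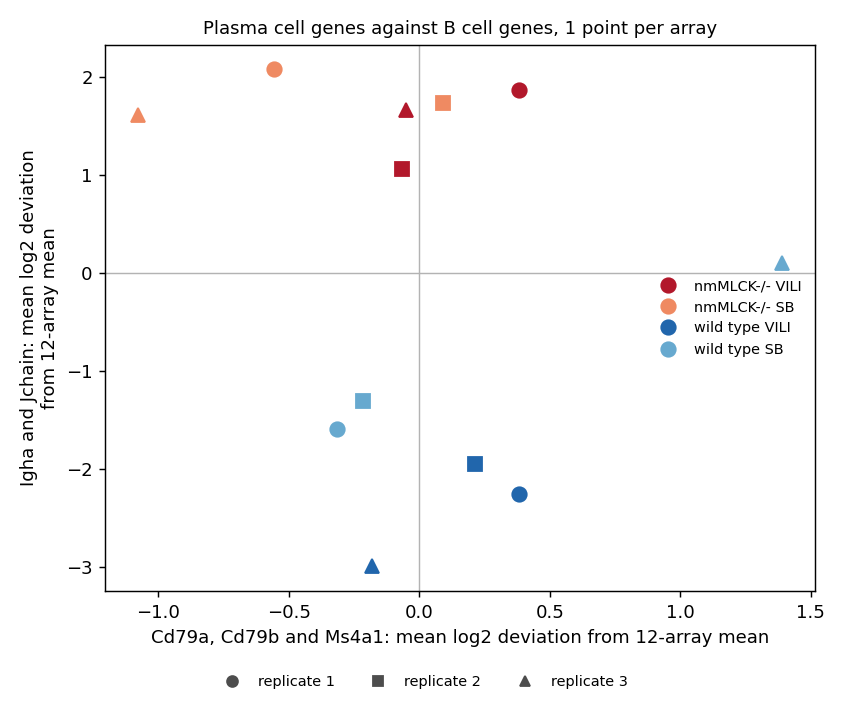
Mean log2 deviation from the 12-array mean for Igha and Jchain (y axis) against that for Cd79a, Cd79b and Ms4a1 (x axis), 1 point per array, colour for the group and shape for the replicate. The nmMLCK-/- arrays lie at 1.06 or above on the y axis and the wild-type arrays at 0.10 or below, while on the x axis the genotypes overlap and wild-type SB replicate 3 lies at 1.39.

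The response to VILI averaged over both genotypes is a comparison that the choice of the genes did not use directly. Where the groups have equal spread and size, it is independent of the genotype difference in either condition. The spread of Igha was unequal, and fits without an array have unequal groups, so there the independence is not complete. The response was tested with limma over all 22443 probe sets, of which 32% changed, 13.7% up and 18.3% down, at a Benjamini-Hochberg adjusted p under 0.05. Of the 15 probe sets of the 8 genes, 0 rose and 1 fell, that of Jchain. By unadjusted limma p under 0.05 the count was 2, Jchain and Pou2af1. At least 32% of all probe sets passed that looser threshold, since 32% passed after adjustment. Jchain fell by 0.90 ± 0.21 log2 (SE, limma adjusted p = 0.00925), or 1.86-fold. It was lower in 6 of 6 VILI arrays than the SB mean of the same genotype. The VILI minus SB difference was -0.56 ± 0.29 in nmMLCK-/- and -1.23 ± 0.29 in wild-type lungs, and whether these differ was not tested. In wild type its VILI arrays lay wholly below the SB arrays, as did 18.2% of all probe sets. Over both genotypes none of the 15 had all VILI arrays above or below all SB arrays, where 7.38% and 8.4% of all probe sets did.

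The Igha probe sets were lower after VILI by -0.78 ± 0.47, -0.75 ± 0.39 and -1.02 ± 0.49 on the mean of both genotypes and did not pass (limma adjusted p = 0.225, 0.163 and 0.134). Within nmMLCK-/- lungs the VILI minus SB difference lay between -0.03 and 0.04, and within wild-type lungs between -2.0 and -1.49. The wild-type values were -0.86, -0.82 and -1.19 without wild-type SB replicate 3, and the mean over genotypes was -0.41, -0.41 and -0.61. Whether the genotypes differ in this response was not tested, because the difference of responses is made of the same genotype differences.

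Pou2af1 was higher after VILI by 1.10 ± 0.42 and did not pass (limma adjusted p = 0.0711), with all 6 VILI arrays above the SB mean of their genotype. In nmMLCK-/- lungs its 3 VILI arrays lay wholly above the SB arrays (1.74 ± 0.60), as did those of Cd79a (0.79 ± 0.42) and Cd79b (0.88 ± 0.36), while in wild type all 3 genes overlapped (0.46 ± 0.60, 0.10 ± 0.42 and -0.03 ± 0.36). In nmMLCK-/- lungs 18.5% of all probe sets had VILI arrays wholly above SB. On the mean of both genotypes Cd79a stood at 0.45 ± 0.30 (limma adjusted p = 0.266) and Cd79b at 0.42 ± 0.25 (limma adjusted p = 0.222). Without wild-type SB replicate 3 these genes passed, Pou2af1 at 1.45 ± 0.32 (limma adjusted p = 0.00952), Cd79a at 0.72 ± 0.19 (limma adjusted p = 0.0207) and Cd79b at 0.62 ± 0.20 (limma adjusted p = 0.0394). In that fit 13% of all probe sets rose. The call for all 3 thus depends on that array.

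Ms4a1 did not pass, at -0.20 ± 0.39 and -0.17 ± 0.40 (limma adjusted p = 0.707 and 0.768), and neither did the 4 Ighm probe sets, at -0.40 to 0.15 (limma adjusted p = 0.44 to 0.933), or those of Pigr, at 0.18 ± 0.17 and -0.05 ± 0.17 (limma adjusted p = 0.425 and 0.845).

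Further genes of the lineage were read from lists. Of 16 other plasma cell genes, 12 had a probe set past the filter. They include the secretory pathway regulator Xbp1, the plasma cell regulator Prdm1, the chaperone Mzb1 and the syndecan Sdc1, several of which other lung cells also express, and the maturation receptor Tnfrsf17 did not pass the filter. For the mean VILI effect 1 rose, the elongation factor Ell2 by 0.55 ± 0.09 (limma adjusted p = 0.00212), and 1 fell, the lambda light chain gene Iglv1 by 1.65 ± 0.56 (limma adjusted p = 0.0461), where 13.4% of all genes rose and 21.2% fell. When wild-type SB replicate 3 was left out Iglv1 stood at -1.18 ± 0.41 and did not pass (limma adjusted p = 0.0567). The median was 0.05, against -0.05 over all genes.

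Between genotypes the 12 differed in both directions. After VILI 1 lay wholly above wild type (11.1% of all genes did), Sdc1 by 0.17, and 3 lay wholly below (9.33%), Ell2 by -0.32, Prdm1 by -0.29 and Edem1 by -0.12. Under SB Prdm1 lay wholly above by 0.44 and Txndc5 wholly below by -0.25, where 4.3% and 2.31% of all genes did. The median was 0.04 in each condition, and 0.15 under SB with wild-type SB replicate 3 left out. Mzb1 differed by 0.00 ± 0.16 after VILI, where it read 5.57 to 5.62 in both genotypes. Under SB it differed by 0.02 ± 0.16, at 5.90, 5.93 and 5.61 in nmMLCK-/- lungs, against 5.60, 5.59 and 6.21 in wild type. Its SB difference was 0.22 ± 0.105 without wild-type SB replicate 3. Iglv1, at 6.68, 5.20 and 6.56 in nmMLCK-/- VILI, against 4.81, 6.03 and 4.02 in wild-type VILI, and at 8.21, 7.62 and 8.36 in nmMLCK-/- SB, against 5.83, 4.96 and 8.26 in wild-type SB, was higher in the means but overlapped, by 1.19 ± 0.79 after VILI and 1.71 ± 0.79 under SB. With wild-type SB replicate 3 left out, Iglv1 lay wholly above wild type under SB, by 2.67 ± 0.61. So did, among others, Mzb1 and the B cell list genes Cd72 and H2-Ob. The share of all genes without overlap in that smaller set of arrays was not counted.

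Of 22 other B cell genes, 16 passed the filter, while the lineage regulator Pax5 and the complement receptor Cr2 did not. For the mean VILI effect 1 rose, the kinase Btk by 0.23 ± 0.06 (limma adjusted p = 0.0148), and 0 fell, where 13.4% of all genes rose and 21.2% fell. The next smallest p were those of Fcrla, Ebf1 and Cd37, which did not pass (limma adjusted p = 0.145, 0.302 and 0.317). With that array of wild-type SB left out, replicate 3, there were 3 that rose, Btk, Fcrla and H2-Ob, where 1632 of 12309 genes rose. After VILI the adaptor Blnk (0.38), the class II gene H2-Ob (0.37), the class II-associated Cd74 (0.24), Fcer2a (0.10) and Tnfrsf13c (0.03) lay wholly above wild type. The lineage factor Ebf1 (-0.36) lay wholly below. Of all genes 11.1% lay wholly above and 9.33% wholly below. The margin can be slight, since Tnfrsf13c read 6.054 to 6.083 in nmMLCK-/- VILI, against 6.013 to 6.049 in wild-type VILI. Under SB Btk lay wholly below by -0.36, where 2.31% of all genes did. Which lung cells gave the signals of Btk, Ebf1 and Cd74 was not tested. The median was 0.05 after VILI and -0.32 under SB, and 0.16 under SB without wild-type SB replicate 3.

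Genes for switching to, homing of and support for immunoglobulin A cells were mostly dim, with 7 of 16 past the filter. Of these, 2 rose after VILI, the cytokine gene Il6 by 5.66 ± 1.02 (limma adjusted p = 0.00298), although nmMLCK-/- VILI replicate 3 stayed at 2.25, and the homing integrin Itga4 by 0.71 ± 0.19 (limma adjusted p = 0.0162). The share of all genes that rose was 13.4%. The B cell chemokine Cxcl13, at -0.70 ± 0.33, and the B cell survival factor Tnfsf13b, at -0.19 ± 0.11, did not pass (limma adjusted p = 0.122 and 0.192). After VILI Itgb7, the partner of Itga4, lay wholly above wild type by 0.28, Vcam1 wholly below by -0.41 and Tnfsf13b wholly below by -0.32, and none did so under SB. Of all genes 11.1% lay wholly above and 9.33% wholly below after VILI, and 4.3% and 2.31% under SB. The medians of the genotype difference were -0.32 after VILI and -0.00 under SB, or 0.17 under SB with wild-type SB replicate 3 left out.

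Markers of other cells were set beside these results. For the mean VILI effect 13.4% of all genes rose and 21.2% fell. Of 8 T cell genes past the filter, 3 rose after VILI (Cd3e by 0.52, Cd3d by 0.76 and Lat by 0.28, limma adjusted p = 0.0145, 0.0275 and 0.0469). Of 5 plasmacytoid dendritic cell genes, Tcf4 rose by 0.30 and Bst2 fell by 0.34 (limma adjusted p = 0.0143 and 0.046), and without wild-type SB replicate 3 Bst2 stood at -0.27 ± 0.10 (limma adjusted p = 0.0829). Of 4 genes of lymphoid tissue stroma and germinal centres 0 passed by limma. Of 11 airway secretory genes Aldh1a1 fell by 0.17 (limma adjusted p = 0.0387). Of 11 neutrophil genes 10 rose, with a median of 2.55, led by Il1r2, Mmp8, Clec4d and Trem1 (limma adjusted p = 0.000268 to 0.000956). As mean deviations from the 12-array mean, T cell genes stood at 0.07 to 0.09 in nmMLCK-/- VILI and -0.25 to -0.01 in nmMLCK-/- SB, and at -0.03 to 0.16 in wild-type VILI and -0.36 to 0.27 in wild-type SB. Airway secretory genes stood at -0.27 to 0.22 in nmMLCK-/- VILI and -0.52 to 0.53 in nmMLCK-/- SB, and at -0.67 to 0.55 in wild-type VILI and -0.27 to 0.33 in wild-type SB. For both lists the genotypes overlapped in each condition. Over all 12 arrays no gene of any list separated the genotypes, where 0.138% of all genes lay wholly above wild type and 0.0812% wholly below. Under SB the neutrophil genes Clec4d, S100a8 and S100a9, 3 of the 11, lay wholly below wild type, where 2.31% of all genes did. The club cell gene Scgb1a1, a lung marker, read 16.15 to 16.22 on all arrays.

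Wild-type SB replicate 3, the array with the highest B cell values, also stood apart in other lists. The 16 B cell genes stood at 1.25 on it, against -0.34 and -0.44 in the other wild-type SB arrays. The plasmacytoid dendritic cell list stood at 0.87, against -0.21 in each of the others, the T cell list at 0.27, against 0.00 and -0.36, and the neutrophil list at 0.53, against -1.75 and -1.24. The part of these cells in its Igha and Jchain values was not tested, and without it both genes were still higher in nmMLCK-/- SB lungs, by 2.73 for Jchain and at least 3.51 for Igha.

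The genes whose profile over the 12 arrays was most like that of Igha and Jchain together were Atp13a4, Prkg2, Igkv8-30, Tctex1d2 and Clec16a, with a Pearson coefficient of 0.86 to 0.92 as the measure of likeness. Because the arrays fall into the 2 genotypes, this coefficient takes in the genotype difference, and it was also taken within each genotype. Within the 6 nmMLCK-/- arrays it was -0.08 for Atp13a4, 0.09 for Prkg2, 0.75 for Igkv8-30, -0.21 for Tctex1d2 and 0.20 for Clec16a. Within the 6 wild-type arrays it was 0.82 for Atp13a4, 0.90 for Prkg2, 0.90 for Igkv8-30, 0.40 for Tctex1d2 and -0.34 for Clec16a. Igkv8-30, a kappa light chain gene, had the highest of these coefficients in both genotypes. It read 11.70, 11.19 and 11.51 in nmMLCK-/- VILI, against 10.56, 10.17 and 9.995 in wild-type VILI, and 12.42, 11.87 and 11.13 in nmMLCK-/- SB, against 10.67, 10.62 and 11.79 in wild-type SB. Atp13a4, Tctex1d2 and Clec16a lie on chromosome 16 with Mylk. On wild-type SB replicate 3 they read 6.41, 9.59 and 7.37, and on the other wild-type arrays 5.87 to 6.15, 9.09 to 9.45 and 7.25 to 7.56. The nmMLCK-/- arrays lay higher, at 7.90 to 9.08, 9.84 to 10.42 and 8.39 to 9.20. Since the genes were picked by likeness over all 12 arrays, wild-type SB replicate 3 included, these readings are no independent check of its label. For the B cell genes the most alike were Gpr18, the immunoglobulin M receptor gene Fcmr, Arhgdib, the integrin Itgal and Cd8b1. Their coefficients were 0.90 to 0.96 over all arrays, 0.77 to 0.97 within nmMLCK-/- and 0.90 to 0.98 within wild type. All of these genes were highest on wild-type SB replicate 3. The coefficients over all arrays and within wild type include it for both profiles and were not recomputed without it. Cd8b1 was dim, at 3.04 to 4.04, near the filter level of 3.056.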

How the data were processed

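Lung RNA of 12 mice was measured on 1 array each. As deposited, a value is the log2 signal of 1 probe set, normalized by the authors in a way the sources used here do not detail. The submitters' processing notes name MAS5 and GCRMA without a role or version. GCRMA is known to compress differences between dim probe sets, and whether it made these values is not stated. Precision is limited by having 3 arrays in a group. Signals ran from 0.7505 to 16.29. Samples were grouped by their titles.

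Of 45037 probe sets, 34945 had 1 gene symbol in the platform annotation, 932 several and 9160 none. No symbol changed through Entrez ID in RefSeq GRCm38.p6. Probe sets with 1 symbol and a mean of at least the 40th percentile (3.056) were fitted, 22443 of them for 12309 genes, with limma 3.58.1 in R 4.3.3 (lmFit and eBayes, 4 group means, all 12 arrays, no block). Adjusted p-values are Benjamini-Hochberg over all of them, called under 0.05. Standard errors are those of the fit. The fit was tested on simulated data.

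The members, gene lists and tests were chosen with earlier results of these data known. Genotype differences carry no test. Named were all probe sets of the 8 genes, up to 4 genes of a list with the smallest p, up to 3 with the largest genotype difference without overlap, the 5 genes most alike, and Mylk. Other list genes that are named (members of small counts, Mzb1, Scgb1a1 and genes at or under the filter) were added after their values were seen. Arrays with the same replicate number were not treated as pairs. Of 18 correlations of their deviations 4 exceeded 0.1 (-0.587 to 0.439), the highest between the SB replicates 1 of the 2 genotypes. Arrays with different numbers were not compared in this way, so the check cannot decide whether the numbers mark pairs or batches. Alternatives were other scalings, filters and probe set choices, a trend, a block and arrays left out.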

Additional observations from a re-analysis of the deposited data

How the results depend on the processing

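Each of the 15 probe sets' mean VILI effects was recomputed under the alternatives, 292 values in all, and 284 kept their side of the threshold without a called change of sign. The limma call of Jchain held in all 20 of its alternatives, at -1.01 to -0.75 without 1 array and adjusted p of 0.00662 to 0.0247. Calls were gained in 7 cases, by Pou2af1 (also without nmMLCK-/- SB replicate 1, adjusted p = 0.0489), Cd79a and Cd79b. Without wild-type SB replicate 3 and nmMLCK-/- SB replicate 2, Ms4a1 1450912_at turned to 0.44 (adjusted p = 0.046), Cd79b stood at 0.77 and Cd79a at 0.82. In that fit 5 of the 15 probe sets of the 8 genes passed, as did 6450 of all 22443 probe sets. Without 1 array, 1 to 4 passed (4 without wild-type SB replicate 3, 2 without nmMLCK-/- SB replicate 1). Over all probe sets 7191 passed, 5436 to 7307 without 1 array, and 4520 with 1 probe set a gene, where fewer features are tested. With array medians set equal 51.3% of calls were higher after VILI and with quantile normalization 47.6%, against 42.8% as deposited. The replicate block, under which the group means and so the genotype differences are the same by construction (4.49 and 2.93 for Igha and Jchain), changed no call of the 8 genes and gave 6089 calls over all probe sets. Without 1 array the median genotype difference of Igha and Jchain was 4.00 to 5.01 after VILI and 2.52 to 3.64 under SB. That of the B cell genes was -0.21 to 0.12 and -1.18 to -0.14, so the direction of the B cell value after VILI is not settled. The cause of these shifts was not tested.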
